A study of Helianthus annuus with 12 samples.

Results

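Fragments of small nucleolar RNAs (snoRNAs) were followed in 12 small RNA libraries of sunflower (Helianthus annuus) seedlings. Of the 198 snoRNA families listed in the deposited count table, 43 had at least 10 counts in at least 3 of the 12 libraries, and these 43 are described here. They were chosen by their counts, so their abundance is a description and not a finding. The libraries came from the cultivar R5, which the submitters describe as drought tolerant, at the stage of 4 leaves. Roots and leaves were taken from seedlings that had stood for 24 h in water with 15% polyethylene glycol (PEG) 6000, which draws water away osmotically, and from seedlings that had stood for 24 h in distilled water. There were 3 libraries each of PEG roots, control roots, PEG leaves and control leaves. The labels do not say that the libraries of a group came from separate plants, so all p-values measure only the spread between these libraries.

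SnoRNAs reside in the nucleolus, where most of them pair with ribosomal RNA (rRNA) and guide enzymes to the base to be modified. Box C/D snoRNAs guide the methylation of the ribose, and box H/ACA snoRNAs guide the change of uridine to pseudouridine, while a few such as U3 are needed to cut the rRNA precursor. A small RNA library reads pieces of these molecules, so a count here is of a fragment and says nothing by itself about the amount of the intact snoRNA. The family names are those of the Rfam collection and are borrowed from the species in which each family was described. Of the 43 families, 27 had names in the plant series (snoR, R, Z and U3), 13 had animal or shared names (SNORD, U and scaRNA), and there was 1 each named after an archaeon, a filamentous fungus and a yeast.

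Total reads per library ranged from 20829490 to 33426228, and between 79.67% and 85.96% of them fell in the 3 entries for exons, introns and intergenic sequence, which name no small RNA. Levels are given as reads per 1000000 of all reads (RPM) or as a percentage of all reads, and counts are raw. Of the 155 snoRNA families below the rule, 136 never reached 10 counts. The families just inside the rule were SNORD57, R64/Z200 and sR32, whose third-highest counts were 10, 11 and 11, and those just outside were snoR113, U89 and SNORD53/SNORD92, each with a third-highest count of 8. Control root replicate 3 stood apart. It held counts in 157 of the snoRNA families, against 39 to 87 in each other library, and 30 of the 43 families had their highest share there. It also held 855 counts of the SNORD and SNORA families below the rule, against 3 to 32 in each other library, and the largest tRNA share, 0.1226% of reads. Values without it are given where they move a call or a size. The table holds small RNA features only, so the organ labels were not checked against marker genes.

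The 43 families together made up 0.0169%, 0.0189% and 0.0221% of all reads in PEG roots and 0.0296%, 0.0367% and 0.0490% in control roots. In leaves they made up 0.00380%, 0.00417% and 0.00362% under PEG and 0.00268%, 0.00243% and 0.00366% in controls. All 6 root libraries lay above all 6 leaf libraries. The PEG roots all lay below the control roots, and the PEG leaves and control leaves overlapped. The group means were 0.0193% ± 0.00265 in PEG roots, 0.0384% ± 0.00982 in control roots, 0.00386% ± 0.000281 in PEG leaves and 0.00292% ± 0.000648 in control leaves (SD, n = 3 each). Without replicate 3 the control root mean was 0.0331%. These shares are sums over families chosen by their counts, so no test was run on them.

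**Figure D1:**
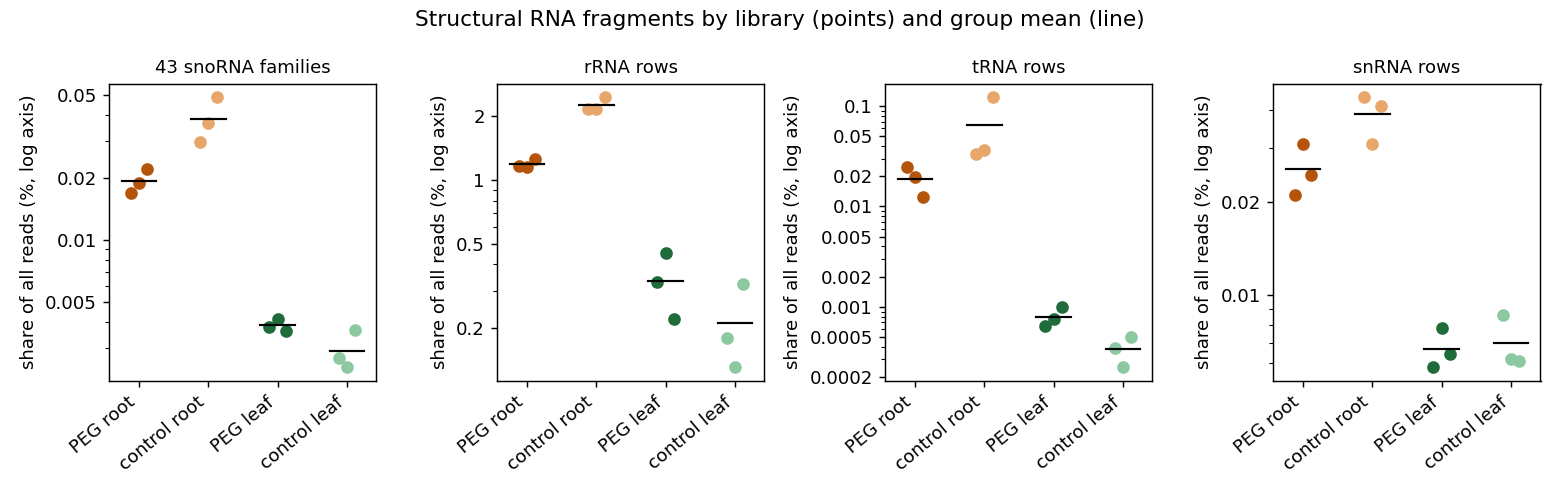
Share of all reads (percent, log axis) held by the 43 snoRNA families and by all rRNA, tRNA and snRNA entries, with a point per library and a line at the mean of the 3 libraries of a group. In the snoRNA panel the 3 PEG root points lie below the 3 control root points, and all root points lie above all leaf points.

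The mean shares of other structural RNAs were also lower in PEG roots than in control roots, the tRNA mean of control roots resting largely on replicate 3. rRNA fragments made up 1.196% ± 0.0574 of reads in PEG roots and 2.27% ± 0.169 in control roots, and 0.335% ± 0.116 in PEG leaves and 0.211% ± 0.0998 in control leaves (SD, n = 3 each). tRNA fragments made up 0.0190% ± 0.00623 in PEG roots and 0.0642% ± 0.0506 in control roots, and 0.000794% ± 0.000176 in PEG leaves and 0.000381% ± 0.000126 in control leaves. Fragments of small nuclear RNAs (snRNAs), the RNAs of the spliceosome, made up 0.0256% ± 0.00504 in PEG roots and 0.0387% ± 0.00679 in control roots, and 0.00668% ± 0.00101 in PEG leaves and 0.00697% ± 0.00139 in control leaves. Without replicate 3 the control root means were 2.17% for rRNA, 0.0351% for tRNA and 0.0375% for snRNA. The part that the amount of structural RNA debris in a library has in the snoRNA values was not tested. In such bulk samples, fewer cells of a type and less RNA per cell cannot be told apart.

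The leading families were not the same in roots and leaves. In PEG roots and control roots the leading family was Afu_294, with 34.0% ± 1.11 and 26.98% ± 5.46 of the counts of the 43 families, against 13.2% ± 6.84 in PEG leaves and 4.96% ± 1.16 in control leaves (SD, n = 3 each). In leaves the leading family was U3, with 28.5% ± 1.17 in PEG leaves and 39.6% ± 6.07 in control leaves, against 8.46% ± 1.202 in PEG roots and 4.07% ± 2.03 in control roots. snoR20a held 12.5% ± 1.61 in PEG roots, 13.4% ± 1.72 in control roots, 25.1% ± 1.72 in PEG leaves and 22.3% ± 2.88 in control leaves. Fewer families were well covered in leaves. Between 31 and 37 of the 43 families reached 10 counts in each PEG root library and 39 to 42 in each control root library, against 14 to 15 in each PEG leaf library and 8 to 11 in each control leaf library. In all, 23 families had a count in every library, 7 had at least 10 counts in every library, and 24 reached 10 counts in no leaf library.

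**Figure D2:**
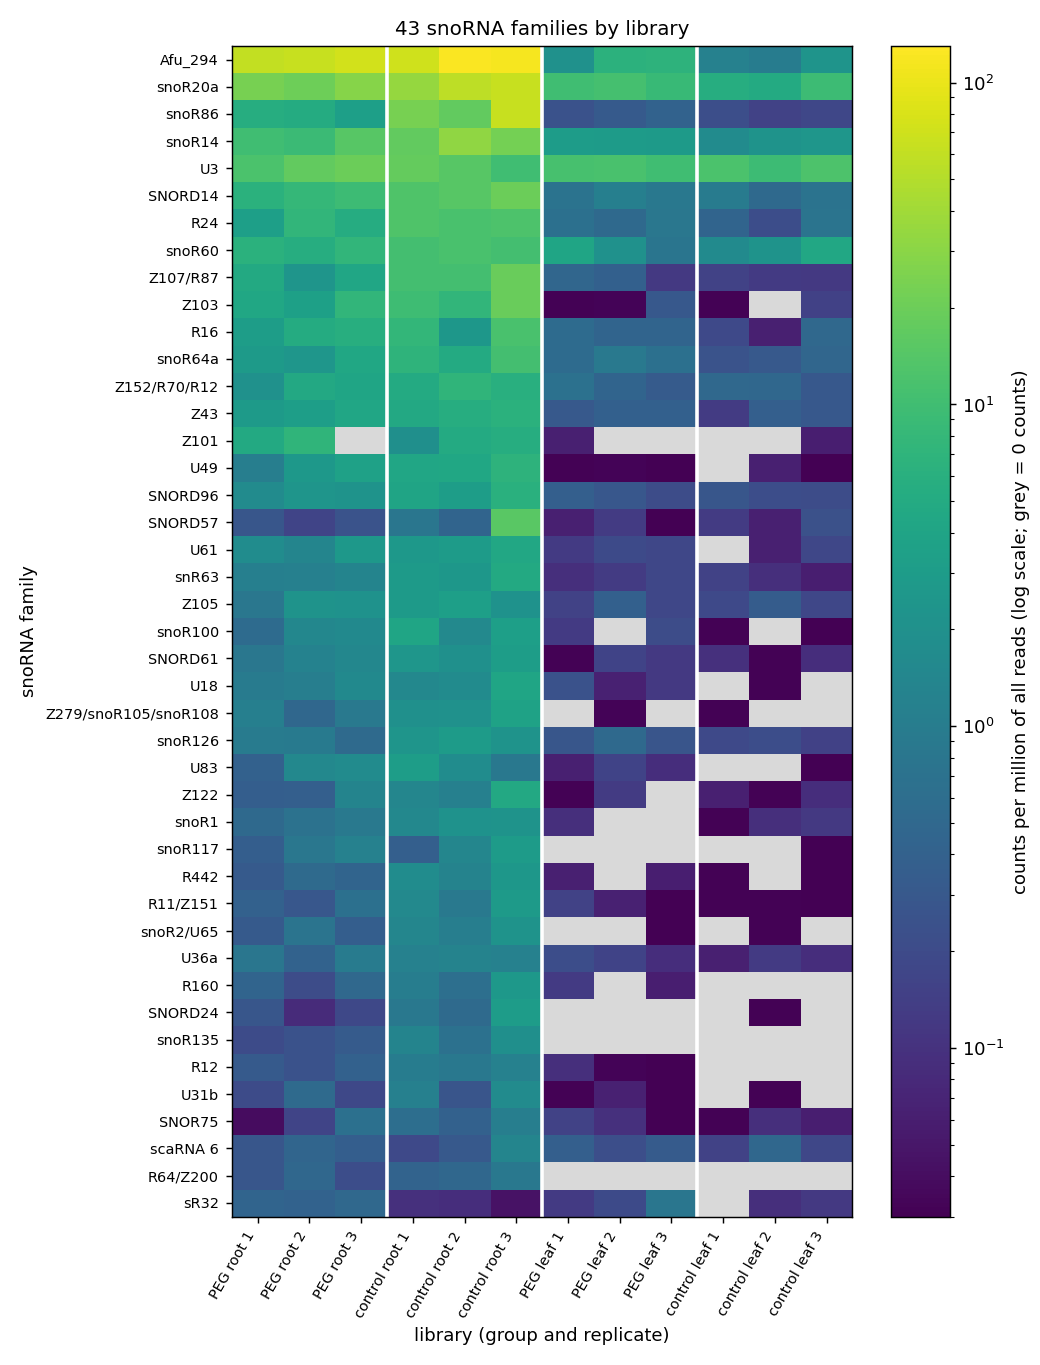
Level of each of the 43 snoRNA families (rows) in each of the 12 libraries (columns) in RPM, on a log colour scale. The root columns are brighter than the leaf columns for most families, the U3 row changes little in colour, and Z101 is grey, for 0 counts, in PEG root replicate 3.

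The comparison of roots with leaves asks how snoRNA fragments are divided between the organs. It was made with edgeR's quasi-likelihood test on the counts of all 10604 features that met the same count rule, relative to all reads of a library, with p-values adjusted over all of them (Benjamini-Hochberg) and a threshold of 0.05. In control plants 40 of the 43 families were higher in roots and none was lower, where 3.92% of all features tested were higher and 32.7% were lower. The same 40 had every control root library above every control leaf library, against 4.33% of all features tested, and none had them all below, against 50.4%. The median log2 fold change of the 43 was 5.22, or 4.80 with the 4 families at 0 in every control leaf set at their lower bound, and the median of all features was -5.12. In PEG-treated plants 31 of 43 were higher in PEG roots than in PEG leaves and none was lower, where 3.16% of all features were higher. In 39 families every PEG root library lay above every PEG leaf library, against 8.25% of all features, and in none all below, against 35.0%. There the median of the 43 was 3.13, or 2.997 with the 4 families at 0 in every PEG leaf set at their bound, against -1.62 for all features. Without control root replicate 3, 38 families were higher in control roots and 33 in PEG roots, where 3135 and 2271 of all features were called in either direction. With TMM scaling factors 581 of all features were higher and 1939 lower in control roots, against 416 and 3470 on the scale of all reads.

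Part of the count of families higher in roots is set by how the families were chosen. Of the 43, 31 met the count rule only with the help of root libraries, and a family that is rare in leaves had to be higher in roots to do so. The other 12 met it in the leaf libraries alone. Of these 12, 10 were higher in control roots with a median log2 fold change of 4.07, and 9 were higher in PEG roots with a median of 2.54. Among all 9924 features that met the rule in leaf libraries alone, 2.45% were higher in control roots and 2.07% in PEG roots. Relative to the summed counts of rRNA, tRNA, snRNA and snoRNA in place of all reads, an alternative chosen after seeing the data, 11 of the 43 were higher in control roots and 1, U3, was lower, and the median was 1.78. On that scale 3 were called between PEG roots and PEG leaves, with a median of 1.18. Over all features that scale gave 148 higher and 9342 lower in control roots, and 131 higher and 3993 lower in PEG roots, against 335 and 1328 in PEG roots on the scale of all reads.

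**Figure D3:**
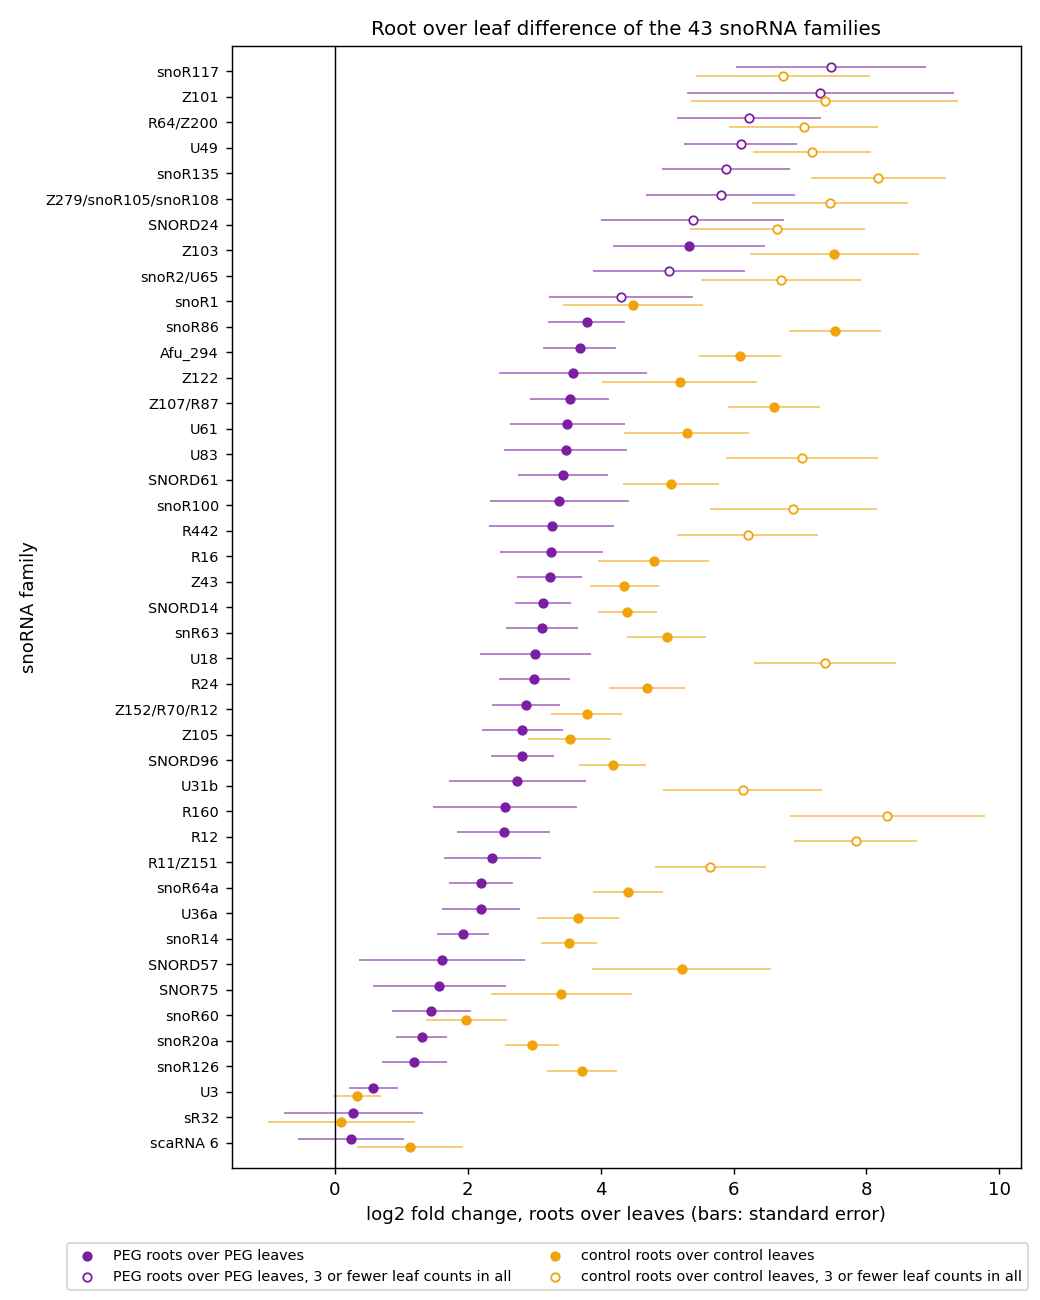
log2 fold change of roots over leaves for each of the 43 snoRNA families, in PEG-treated and in control plants, with bars for the standard error and hollow points where the leaf libraries held 3 or fewer counts in all. Most families lie right of 0 in both comparisons, from 0.10 for sR32 to 7.53 for snoR86 among the filled points of control plants, and the points of U3, scaRNA 6 and sR32 are the lowest in both. Fitted values of hollow points depend on the prior count.

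U3, which takes part in the early cuts of the 18S rRNA precursor and is made by RNA polymerase III in plants, had 11.9, 17.4 and 20.1 RPM in PEG roots and 18.1, 14.9 and 10.03 RPM in control roots. It had 11.3, 11.7 and 10.1 RPM in PEG leaves and 12.3, 9.43 and 12.4 RPM in control leaves. Its libraries overlapped between the treatments in both organs and between control roots and control leaves, but every PEG root library lay above every PEG leaf library. The log2 fold change of control roots over control leaves was 0.33 ± 0.36 (SE, edgeR adjusted p = 0.429), and that of PEG roots over PEG leaves was 0.58 ± 0.37 (adjusted p = 0.260). These signs depend on the scale: relative to the structural RNA counts the log2 fold changes of U3 were -3.22 in control plants and -1.38 in PEG-treated plants. With TMM factors U3 was called higher in both, with 1.68 in control plants (adjusted p = 0.0051) and 1.05 in PEG-treated plants (adjusted p = 0.0482).

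SNORD14, the U14 family, which is needed for 18S rRNA processing in yeast and also guides a methylation there, followed the majority. It had 6.30, 8.03 and 9.36 RPM in PEG roots and 13.2, 14.7 and 19.7 RPM in control roots, and 0.723, 1.10 and 0.868 RPM in PEG leaves and 0.982, 0.529 and 0.724 RPM in control leaves. Root libraries lay above leaf libraries throughout, and PEG roots lay below control roots without overlap. The log2 fold change of control roots over control leaves was 4.40 ± 0.45 (SE, edgeR adjusted p = 0.000389), that of PEG roots over PEG leaves was 3.13 ± 0.42 (adjusted p = 0.00241), and that of PEG roots over control roots was -1.01 ± 0.39 (adjusted p = 0.253).

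Afu_294 was the most abundant family in roots. Its name comes from a snoRNA of the fungus Aspergillus fumigatus. It had 59.5, 63.6 and 73.2 RPM in PEG roots and 69.9, 122 and 118 RPM in control roots, where replicate 1 lay within the range of the PEG roots. In leaves it had 2.07, 6.50 and 6.70 RPM under PEG and 1.203, 0.996 and 2.29 RPM in controls, and the lowest PEG leaf lay below the highest control leaf. The log2 fold change of control roots over control leaves was 6.10 ± 0.62 (SE, edgeR adjusted p = 0.000381) and that of PEG roots over PEG leaves was 3.68 ± 0.55 (adjusted p = 0.00296). PEG roots over control roots gave -0.66 ± 0.50, which did not pass (adjusted p = 0.599). The other 3 families with fungal names together held 0 to 3 counts in each of the 12 libraries.

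snoR20a and snoR14 are plant-named families that were abundant in both organs. snoR20a had 23.6, 20.4 and 28.1 RPM in PEG roots and 35.1, 56.0 and 64.3 RPM in control roots, and 9.90, 10.9 and 8.38 RPM in PEG leaves and 5.48, 5.04 and 9.35 RPM in control leaves. Its PEG roots all lay below its control roots, and its leaf groups overlapped through control leaf replicate 3. snoR14 had 10.03, 9.02 and 14.9 RPM in PEG roots and 17.2, 32.5 and 22.5 RPM in control roots, and 3.11, 2.94 and 2.84 RPM in PEG leaves and 1.68, 2.18 and 2.41 RPM in control leaves. It was all lower in PEG roots and all higher in PEG leaves than in their controls. Neither passed between the treatments in roots, where the log2 fold change was -1.11 ± 0.38 for snoR20a (SE, edgeR adjusted p = 0.211) and -1.09 ± 0.38 for snoR14 (adjusted p = 0.226). The log2 fold change of control roots over control leaves was 2.97 ± 0.41 for snoR20a (SE, edgeR adjusted p = 0.000792) and 3.52 ± 0.42 for snoR14 (adjusted p = 0.000542). For PEG roots over PEG leaves it was 1.31 ± 0.39 for snoR20a (adjusted p = 0.0434) and 1.93 ± 0.39 for snoR14 (adjusted p = 0.00529). The call of snoR20a in PEG-treated plants was lost without any 1 of the 6 PEG libraries, without control root replicate 2 or without control leaf replicate 1. Relative to structural RNA counts the sign turned: the values were -0.54 for snoR20a and -0.06 for snoR14 in control plants, and -0.63 and -0.05 in PEG-treated plants.

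snoR60, also a plant-named family, had 6.30, 5.504 and 7.34 RPM in PEG roots and 10.7, 11.7 and 10.8 RPM in control roots. Its leaf values spread widely, with 4.12, 2.10 and 0.778 RPM under PEG and 1.65, 2.21 and 4.52 RPM in controls. The log2 fold change of control roots over control leaves was 1.98 ± 0.61 (SE, edgeR adjusted p = 0.0306), and that of PEG roots over PEG leaves, 1.45 ± 0.60, did not pass (adjusted p = 0.125), although without PEG leaf replicate 1 it was 2.15 and passed (adjusted p = 0.0494). The call in control plants was lost with the replicate number as a block (adjusted p = 0.0696) and without control root replicate 2 or control leaf replicate 1 or 2, and relative to structural RNA counts the value turned to -1.46. R24, with 410 counts in PEG roots and 808 in control roots, had a log2 fold change of 4.70 ± 0.58 in control plants (adjusted p = 0.000598) and 2.997 ± 0.53 in PEG-treated plants (adjusted p = 0.00383).

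**Figure D4:**
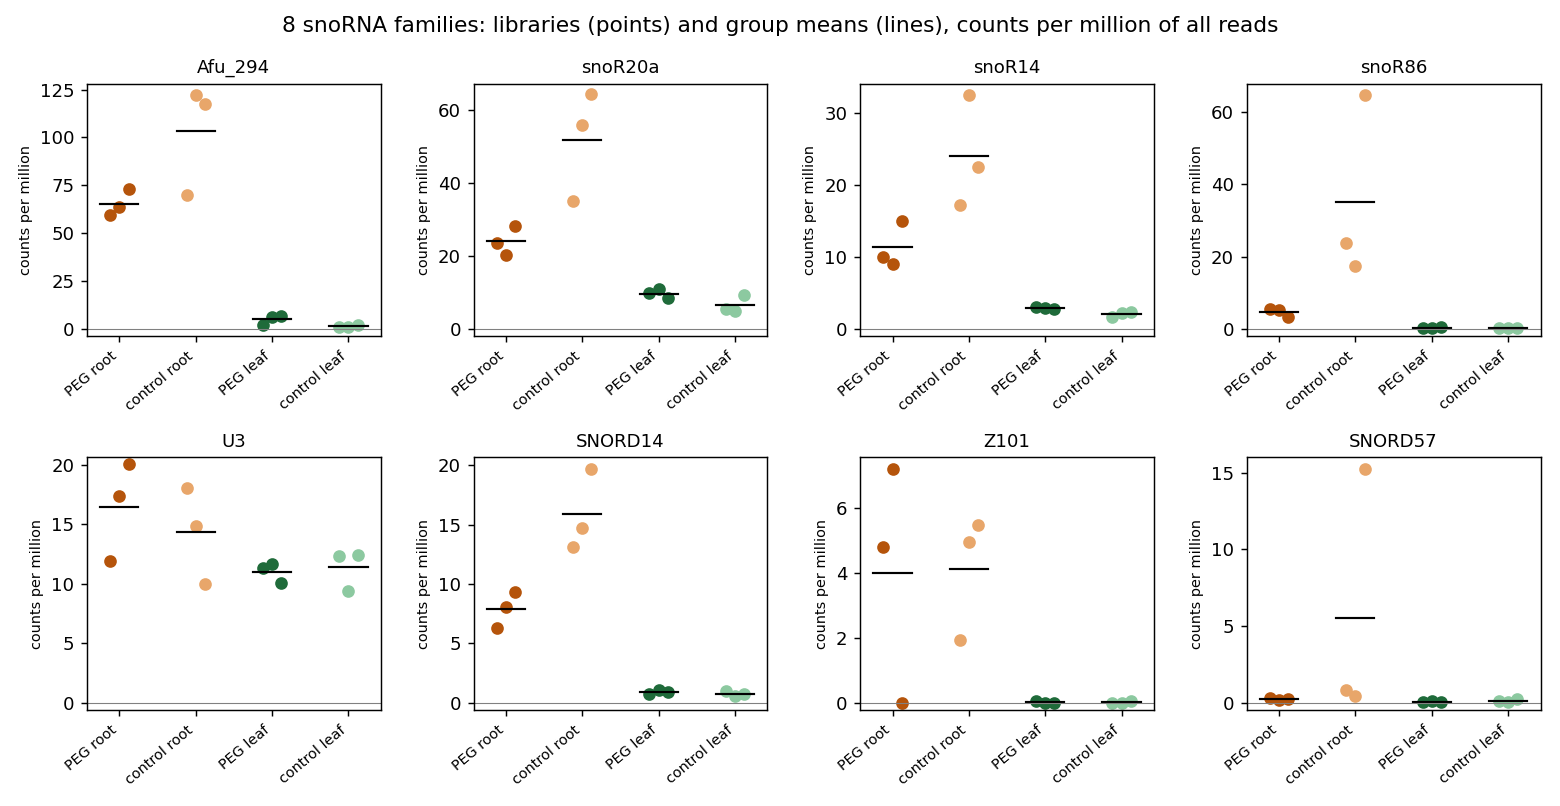
RPM (linear axis) of 8 snoRNA families, with a point per library and a line at the mean of the 3 libraries of a group. PEG root points of snoR86 lie below all its control root points, U3 lies between 9.43 and 20.1 RPM in all libraries, and control root replicate 3 holds the highest points of snoR86 and SNORD57.

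snoR86 was the 1 family called between the treatments in roots. It had 5.45, 5.13 and 3.38 RPM in PEG roots and 23.7, 17.3 and 64.5 RPM in control roots, and 0.251, 0.323 and 0.419 RPM in PEG leaves and 0.222, 0.156 and 0.181 RPM in control leaves. PEG roots lay below control roots and PEG leaves above control leaves, in both cases without overlap, and the leaf values rest on 32 counts under PEG and 18 in controls. Its log2 fold change of PEG roots over control roots was -2.92 ± 0.55 (SE, edgeR adjusted p = 0.0143). Without control root replicate 3, its highest library, the value was -2.14 (adjusted p = 0.00703). The call was lost without PEG root replicate 2 (adjusted p = 0.0597) or 3 (adjusted p = 0.0736), with siRNAs left out (adjusted p = 0.0557), with only the groups compared in the fit (adjusted p = 0.334), and on the scale of structural RNA counts, where the value was -1.91 (adjusted p = 0.138). The call was also lost with the replicate number as a block in edgeR, at -2.74 (adjusted p = 0.0796). It held with TMM factors, at -4.16 (adjusted p = 0.0194), and with DESeq2 and its own scaling factors, at -4.41 (adjusted p = 3.52e-05). It also had the smallest p of the 43 between control roots and control leaves, with a log2 fold change of 7.53 ± 0.69 (adjusted p = 0.000249) that was 6.75 without control root replicate 3 (adjusted p = 8.13e-05), and one of 3.79 ± 0.58 between PEG roots and PEG leaves (adjusted p = 0.00323).

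The comparison of PEG roots with control roots asks how osmotic stress changes these fragments in roots. By edgeR 1 of the 43 families was lower and 0 were higher, where 0.0189% of all features tested were lower and 2.14% were higher, and 16 of the 43 had an unadjusted p under 0.05, against 16.6% of all features. DESeq2 called 13 of the 42 it tested, all lower, against 0.722% of all features. It scaled libraries by its own factors and not by all reads, so its count differs from that of edgeR in scale as well as test. With DESeq2 the median log2 fold change of the 43 was -2.43. PEG root libraries all lay below control root libraries in 26 families, against 1.14% of all features, and all lay above in 1, sR32, against 13.5%. By edgeR on the scale of all reads the median log2 fold change of the 43 was -1.12, against 0.45 for all features. Without control root replicate 3 it was -0.90, against 0.05 for all features, and 28 families lay all lower, against 2.07%. Without the control root libraries 29 of the 43 still met the rule. The rest were chosen with the help of control root counts, which favours lower PEG root values. Of the 43, 3 (SNORD24, SNORD57 and snoR135) reached 10 counts in control roots alone. The 26 families and the median of -1.12 include families that met the rule only through control roots. For the 29 the median was -1.06, and no matching value was computed for all features chosen without control roots. On the scale of structural RNA counts the median of the 43 was -0.18 and 0 were called by edgeR, against 234 of all features.

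Among families with large fitted changes in roots, counts were often few or uneven. SNORD57, whose human counterpart guides rRNA methylation, had 7, 4 and 7 counts in PEG roots and 17, 10 and 342 in control roots. Its log2 fold change of -4.53 ± 1.30 (SE, edgeR adjusted p = 0.109) was -1.42 (adjusted p = 0.562) without control root replicate 3. SNORD24, another guide of rRNA methylation in humans, had 7, 2 and 5 counts in PEG roots and 18, 12 and 69 in control roots, with a log2 fold change of -3.002 ± 1.07 (adjusted p = 0.253) that was -1.92 without control root replicate 3 (adjusted p = 0.670). In organs, SNORD57 was called higher in control roots than in control leaves, with a log2 fold change of 5.22, but not without control root replicate 3, at 2.11 (adjusted p = 0.0962), or without control leaf replicate 1 or 2. Both families lay all lower in PEG roots, and for both the highest control root library was replicate 3. sR32, a family named from archaea, ran the other way with 11, 10 and 14 counts in PEG roots and 2, 2 and 1 in control roots, and 4, 6 and 27 in PEG leaves and 0, 3 and 4 in control leaves. Its log2 fold change was 2.504 ± 1.14 in roots (adjusted p = 0.304) and 2.32 ± 1.11 in leaves (adjusted p = 1.0), where it was 1.11 without PEG leaf replicate 3. The other 23 archaeal-named families together held 2 to 22 counts in each library.

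Z101 was uneven in another way. It had 120, 174 and 0 counts in PEG roots and 40, 110 and 123 in control roots, and 0 to 2 counts in each leaf library. The 0 in PEG root replicate 3 allows up to 0.110 RPM (3 counts; counting error only), below the 4.81 and 7.20 RPM of the other PEG root libraries. It was the 1 family of the 43 that was not detected in every root library. Z101 was called higher in roots than in leaves in both control and PEG-treated plants, with 2 counts over each leaf group. Of the 12 fits with a library left out, 2 lost the call in control plants and 5 lost that in PEG-treated plants.

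Several families with animal or shared names, most of them rRNA methylation guides in humans, had few counts in leaves. Others of these names did not: SNORD14 reached 10 counts in every library, and scaRNA 6 met the count rule in leaf libraries alone. Few leaf counts were also not particular to these names, since the plant-named R64/Z200 and snoR135 had 0 counts in every leaf library. U49 had 190 counts over the 3 PEG roots and 338 over the 3 control roots, against 3 over the PEG leaves and 3 over the control leaves. U18 had 93 and 162 in the same root groups, with 14 over the PEG leaves and 1 over the control leaves. SNORD96 had 160 and 288, with 28 over the PEG leaves and 23 over the control leaves, and a log2 fold change of control roots over control leaves of 4.18 ± 0.50 (SE, edgeR adjusted p = 0.000542). SNORD61, U61, U83, U31b and U36a were also higher in control roots than in control leaves, with a log2 fold change of 3.66 for U36a and of 5.29 for U61, or 6.56 for U61 without control leaf replicate 3. U83 and U31b each held 1 count over the control leaves, so no fold is given for them. snoR2/U65, whose human counterpart U65 is a box H/ACA guide of pseudouridylation, had 36 counts in PEG roots and 102 in control roots, with 1 over the PEG leaves and 1 over the control leaves. Of the control root counts, replicate 3 held 152 for U49, 93 for U18, 135 for SNORD96 and 49 for snoR2/U65. These families were called higher in control roots than in control leaves, also with each library left out. U49, U18, SNORD96, SNORD61, U61, U83, U36a and snoR2/U65 were also called higher in PEG roots than in PEG leaves, and U31b was not. For U18, U36a, U61 and U83 that call was lost without PEG root replicate 3 or without PEG leaf replicate 2 or 3. Of the 12 fits with a library left out, the call was lost in 3 for U36a, 4 for U18, 4 for U61 and 5 for U83.

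scaRNA 6 belongs to the small Cajal body RNAs, which guide modification of spliceosomal snRNAs in animals. It had 7, 11 and 10 counts in PEG roots, 4, 7 and 30 in control roots, 12, 7 and 11 in PEG leaves and 5, 16 and 6 in control leaves, and all groups overlapped. Its log2 fold change of control roots over control leaves was 1.13 ± 0.80 (SE, edgeR adjusted p = 0.227). snR63, a family named from yeast, had 92 counts in PEG roots and 227 in control roots, against 13 in PEG leaves and 10 in control leaves, and was higher in control roots with a log2 fold change of 4.996 ± 0.59 (adjusted p = 0.000542).

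Among the remaining plant-named families, 4 of the 43 had no count in any control leaf library. For R160 the fold of control roots over control leaves was at least 15.3, for snoR135 at least 13.9, for R12 at least 11 and for R64/Z200 at least 6.36, taking a floor of 3 counts per library. Without control root replicate 3 these bounds were 9.07 for R160, 10.6 for snoR135, 10.02 for R12 and 4.987 for R64/Z200. R160 had 11, 5 and 14 counts in PEG roots and 22, 14 and 58 in control roots, and 4, 0 and 2 in PEG leaves. R12 had 8, 6 and 11 counts in PEG roots and 21, 19 and 27 in control roots, and 3, 1 and 1 in PEG leaves. snoR117 had 61 counts in PEG roots and 105 in control roots, with 0 over the PEG leaves and 1 over the control leaves. The remaining families called higher in control roots were SNOR75, Z105, snoR126, Z152/R70/R12, Z43, snoR64a, snoR1, R16, Z122, R11/Z151, R442, snoR100 and Z279/snoR105/snoR108, of which the last 4 held 1 to 3 counts over the control leaves. In the others the log2 fold changes ran from 3.41 for SNOR75 to 5.19 for Z122, the value of Z122 being 4.28 without control root replicate 3 and that of R16 5.796 without control leaf replicate 3. The call of SNOR75 was lost with the replicate number as a block (adjusted p = 0.0836) and without control root replicate 1 or 3 or without any 1 control leaf library. Z107/R87 and Z103 were well covered in roots, with 294 and 395 counts in PEG roots and 894 and 795 in control roots. Their control roots stood 100.9-fold and 198-fold above their control leaves, but Z103 had 1, 0 and 5 control leaf counts, and its log2 fold change of 7.52 was 9.22 without control leaf replicate 3. Control root replicate 3 held 437 of the 894 counts of Z107/R87 and 430 of the 795 of Z103. With each library left out, their log2 fold changes ranged from 6.26 to 6.77 and from 6.97 to 9.22. The median fold of the 27 families with over 3 control leaf counts was 21.3. Of the 34 families with over 3 PEG leaf counts, the fold of PEG roots over PEG leaves had a median of 7.36.

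The comparison of PEG leaves with control leaves gave no call. By edgeR 0 of the 43 families and 0% of all features passed in either direction, 5 of the 43 had an unadjusted p under 0.05, against 3.39% of all features. DESeq2 called 0 of the 42 it tested, against 0.209% of all features, and limma voom called 0 of the 43, against 1.6%. PEG leaves lay all above control leaves in 8 families, against 4.15% of all features, and all below in 0, against 7.81%. The median log2 fold change of the 43 was 0.50, against -0.08 for all features. Leaf counts were few: 16 families had 3 or fewer counts over all control leaves. In the other 27, PEG leaves lay all above control leaves in 5, and 22 fitted log2 fold changes were positive. The matching shares of all features were not computed. Among the well-covered Afu_294, snoR20a, U3, snoR14 and snoR60, the largest was that of Afu_294, with 1.76 ± 0.51 (SE, edgeR adjusted p = 0.880).

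**Figure D5:**
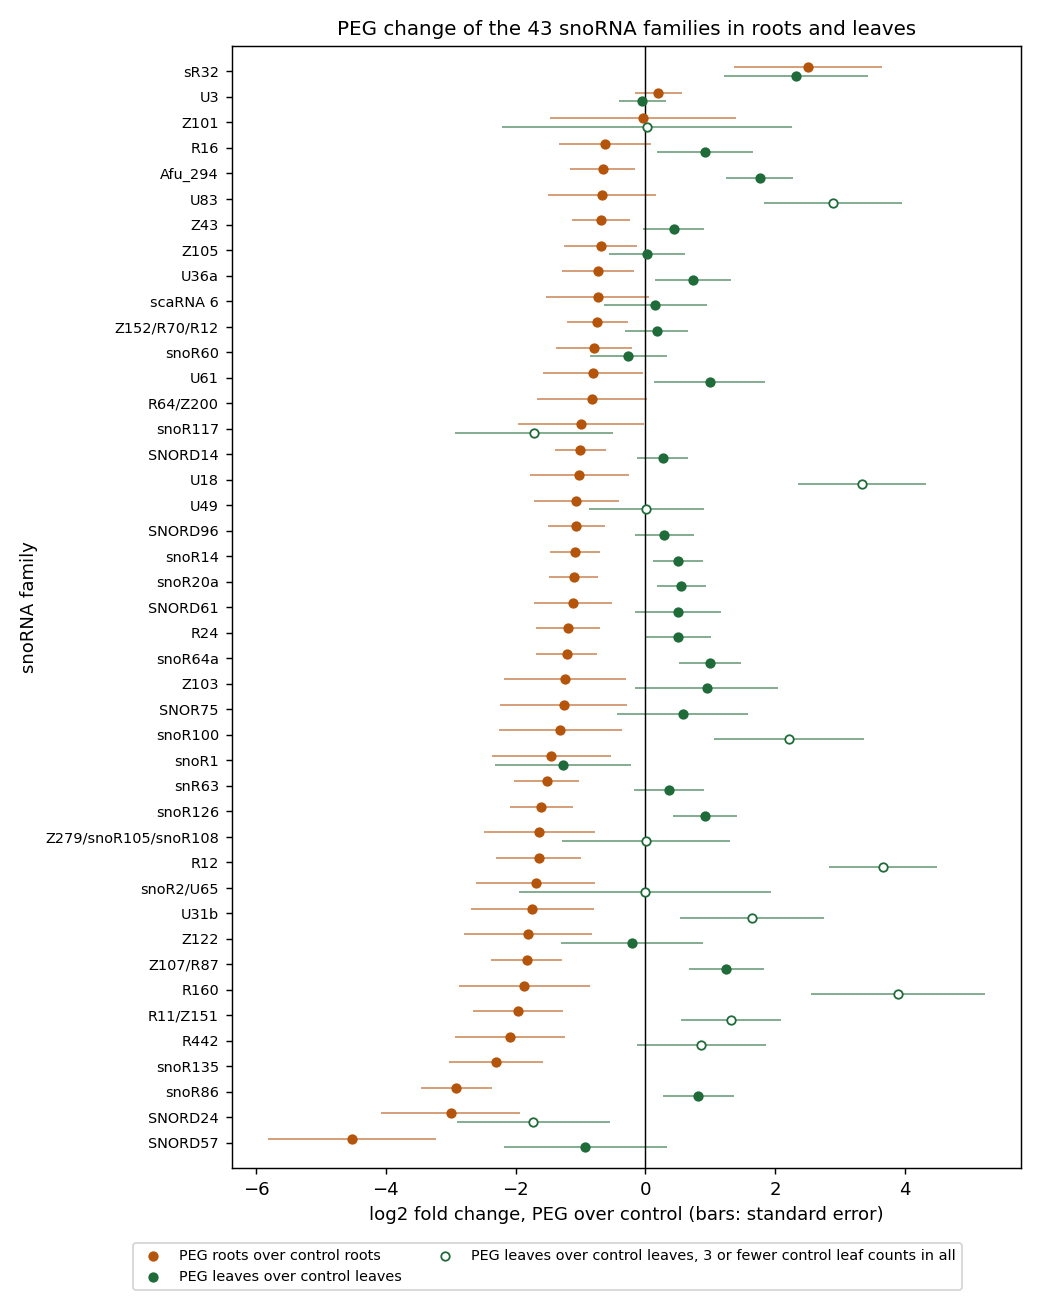
log2 fold change of PEG over control for each of the 43 snoRNA families, in roots and in leaves, with bars for the standard error and hollow points where the control leaves held 3 or fewer counts in all. Root points of 41 families lie left of 0, and most leaf points lie right of it. R64/Z200 and snoR135 have no leaf point because every leaf library was at 0.

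The difference between the PEG effects of the organs was tested directly, as the PEG effect in roots minus that in leaves. By edgeR 2 of the 43 families were lower and 0 were higher, where 0.0283% of all features tested were lower and 2.08% were higher. The median of the 43 was -1.66, against 0.89 for all features. snoR86 had a difference of -3.73 ± 0.77 on the log2 scale (SE, adjusted p = 0.0305), and -2.96 without control root replicate 3 (adjusted p = 0.0119). It did not pass without PEG root replicate 2 or 3, without PEG leaf replicate 2 or 3, or without any 1 of the control leaf libraries. R12 also passed (adjusted p = 0.0409), but its leaf side rests on 5 counts under PEG and 0 in controls, so the size of its difference was not measured, and without control root replicate 3 it did not pass (adjusted p = 0.107). Nor did it pass without PEG root replicate 1 or 2, control root replicate 2, PEG leaf replicate 1 or 2, or any 1 control leaf library. U3 had a difference of 0.25 ± 0.52, whose sign changed with the scaling. Without control root replicate 3 the median of the 43 was -1.43, against 0.59 for all features, and 1 was called, against 232 of all features. On the scale of structural RNA counts the median was -0.10 and 0 of the 43 were called by edgeR, against 237 of all features. This difference equals the organ difference under PEG minus that in controls, from the same 12 libraries, so the smaller organ differences under PEG are the same measurement.

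The RNAs that snoRNAs act on were measured in the same fit. Of the 4 rRNA families tested, all 4 were higher in roots than in leaves in both PEG-treated and control plants, and none passed between the treatments in either organ. Their log2 fold changes of control roots over control leaves were 2.73 for the small subunit rRNA, 4.37 for the large subunit rRNA, 3.49 for 5.8S rRNA and 4.24 for 5S rRNA. Of the 5 spliceosomal snRNA families, 3 were tested and all 3 were higher in roots in both, with 7.75 for U1, 3.26 for U2 and 2.10 for U6 in control plants, or 6.99 for U1 without control root replicate 3. tRNA was higher in roots in both, with 7.40 in control plants, or 6.52 without control root replicate 3. RNase MRP and RNase P, which process rRNA and tRNA precursors, were below the count rule. In PEG roots over control roots these 8 fitted values ran from -2.54 for U1 to -0.34 for U6, and none passed. Without control root replicate 3 the value of U1 was -1.77 and that of tRNA was -0.89 in place of -1.76.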

How the data were processed

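Small RNA was measured in 12 libraries, with RNA taken in Trizol and libraries made by BGI500 protocols, per the labels. The authors deposited a table of raw counts by feature, with TPM beside them. The deposited TPM equalled counts scaled to the sum of their column, not divided by length, in 98.69% of nonzero cells within 0.0051, and served only for this check. Bowtie2 2.2.9 and Bowtie are named without a role, per the submitters' processing notes. Settings, genome build, strand use, the read length range, the Rfam release and the handling of reads that match several families were not given in the sources used here. Entries that name no feature (3, with 79.67% to 85.96% of reads) were not tested, but stay in the library size, since levels are shares of all reads.

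Counts were tested in R 4.3.3 with edgeR 4.0.16 (quasi-likelihood, a mean per group over 12 libraries, 8 residual degrees of freedom) without further scaling factors, and the script was tested on simulated data. Tests covered the 10604 features that reached 10 counts in 3 or more libraries, and the families meeting that rule are those described. Families were named when called in any comparison, among the 5 most abundant of a group, or among the 2 largest or smallest changes under PEG, with the 3 nearest the count rule on each side. scaRNA 6 and the families of control root replicate 3 below the rule were named after their values were seen. The families and lists were chosen with earlier results of these data known. Tried beside this were TMM, RLE and structural RNA scalings, DESeq2 1.42.0 with its own scaling factors, voom in limma 3.58.1, other count minimums, leaving out siRNAs, leaving out each library, fitting only the groups compared, and the replicate number as a block.

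No 2 libraries of a group agreed within sampling noise (smallest chi-square per feature 80.73). Same-numbered control roots and control leaves departed jointly from the group means (r between 0.1773 and 0.2123), so the numbers meet the check for pairs there, from the data alone, since the labels state no pairing. All fits reported as main values leave the number out, and 38 of 40 families stayed called there with it as a block. In the other comparisons no correlation passed 0.1. Bounds and floors cover counting error only, and the labels mention no molecular identifiers.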

Additional observations from a re-analysis of the deposited data

Results flagged for a closer look

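snoR86 and R12 had PEG effects that differed between the organs in edgeR's test of the difference. The log2 fold change in roots minus that in leaves was -3.73 for snoR86 and -5.30 for R12. The value of R12 depends on the prior count, because its control leaves held 0 counts and its PEG leaves held 5.

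For 3 further families every PEG root library lay below every control root library and every PEG leaf library lay above every control leaf library. The share of all features with this pattern was not computed, so whether 3 is unusual was not tested. The difference of the log2 fold changes was -2.21 ± 0.67 for snoR64a, -1.59 ± 0.54 for snoR14 and -2.52 ± 0.69 for snoR126 (SE), and none of these passed in edgeR (adjusted p = 0.230, 0.239 and 0.174). snoR126 had 24, 23 and 15 counts in PEG roots and 49, 65 and 50 in control roots, and 9, 16 and 9 in PEG leaves and 6, 7 and 5 in control leaves. snoR64a had 71, 59 and 120 counts in PEG roots and 145, 112 and 236 in control roots, and 18, 27 and 22 in PEG leaves and 8, 10 and 16 in control leaves.

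The SNORD and SNORA families below the count rule, which the main tests left out, held 855 counts in control root replicate 3, spread over 56 of 61 families, against 3 to 32 in each other library. SNORD104 alone had 244 counts there and at most 3 elsewhere, SNORD30 had 152 and none elsewhere, and SNORD74 had 102 and at most 7.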

How the results depend on the processing

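Leaf values rest on few counts, with 24 of the 43 families at 10 counts in no leaf library. Between PEG leaves and control leaves 0 families were called under every alternative run. Of all features 22 were called there with DESeq2, 170 with limma voom and at most 1 under the others. Between PEG roots and control roots 1 was called, where 229 of all features were called in either direction. The count was 3 with TMM factors, 3 with RLE factors, 3 with limma voom and 13 with DESeq2. In that order 230, 230, 265 and 335 of all features were called. The family count was 0 with siRNAs left out, 0 when only the groups compared were fitted and 0 on the scale of rRNA, tRNA, snRNA and snoRNA counts. In that order 1, 0 and 234 of all features were called, so under the first 2 settings the 0 is not particular to the 43. When each library was left out the family count ranged from 0 to 2, against 229 to 521 of all features. For the difference of PEG effects 2 families and 224 of all features were called. The family count was 8 with DESeq2, 1 with limma voom, 1 with named-feature totals and 1 under a minimum of 10 counts in 6 libraries. In that order 188, 419, 223 and 225 of all features were called. It was 0 without a filter on low counts, 0 without siRNAs and 0 on the scale of structural RNA counts, against 202, 1 and 237 of all features. When each library was left out it was 0 to 2, against 225 to 504 of all features. Between control roots and control leaves 40 were called, against 26 under a minimum of 10 counts in 6 libraries, which tests fewer families, 12 on the structural RNA scale, and 36 to 40 when each library was left out. In that order 3886, 3634, 9490 and 2763 to 3768 of all features were called. Between PEG roots and PEG leaves 31 were called, against 3 on the structural RNA scale and 21 to 33 when each library was left out. In that order 1663, 4124 and 1514 to 2271 of all features were called. Apart from the counts explained by fewer families tested, the cause was not tested.

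With the replicate number as a block, 0 families were called between PEG roots and control roots, 0 for the difference of PEG effects, 20 between PEG roots and PEG leaves and 38 between control roots and control leaves. In that order 218, 0, 1020 and 2644 of all features were called. The replicate numbers met the check for pairs between control roots and control leaves alone, where snoR60 (adjusted p = 0.0696) and SNOR75 (adjusted p = 0.0836) lost their calls.

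TMM factors moved the median log2 fold change of all features to 0.00 from 0.45 between PEG roots and control roots, to 0.42 from 0.89 for the difference, to -4.75 from -5.12 between control roots and control leaves, and to -1.15 from -1.62 between PEG roots and PEG leaves. In that order the median of the 43 families moved to -2.19 from -1.12, to -2.82 from -1.66, to 7.01 from 5.22 and to 3.59 from 3.13. As a share of counts in named features, the 43 families held 0.133% in PEG roots, 0.232% in control roots, 0.0214% in PEG leaves and 0.0161% in control leaves. With each library left out, the shares of all reads were 0.0179% to 0.0205% in PEG roots, 0.0331% to 0.0428% in control roots, 0.00371% to 0.00398% in PEG leaves and 0.00255% to 0.00317% in control leaves.

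Signs turned as follows, all in log2 fold change. On the structural RNA scale, PEG roots over control roots gave 0.28 for Afu_294 and 0.13 for snoR60, and PEG leaves over control leaves gave -0.43 for SNORD14, -0.19 for snoR14 and -0.068 for snoR20a. The difference of PEG effects there was 0.37 for SNORD14, 1.86 for SNORD24, 0.014 for snoR14 and 1.06 for snoR60. Control roots over control leaves there gave -0.23 for SNOR75, -3.22 for U3, -0.15 for Z105, -0.061 for snoR14, -0.54 for snoR20a and -1.46 for snoR60, and PEG roots over PEG leaves gave -1.38 for U3, -0.048 for snoR14, -0.63 for snoR20a and -0.40 for snoR60. With TMM, RLE and DESeq2 in that order, U3 gave -0.55, -0.74 and -0.73 in roots, 0.079, 0.087 and 0.088 in leaves, and -0.63, -0.82 and -0.82 for the difference. The difference was -0.61, -0.77 and -0.82 for sR32, and -0.74, -0.92 and -1.68 for snoR117, which had -0.21 with limma voom. With each library left out, U3 in leaves ranged from -0.17 to 0.020 and snoR60 in leaves from -0.96 to 0.27, and the difference ranged from -0.39 to 1.39 for sR32, from -0.99 to 1.56 for snoR117 and from -1.06 to 0.17 for snoR60.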
